A study of Canis lupus familiaris with 18 samples.

Results

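Genes of T lymphocytes and natural killer (NK) cells were followed in 18 canine primary osteosarcomas, malignant bone tumours whose cells deposit bone matrix. The 10 genes were CD3D, CD3E, CD2, CD5, CD8A, LCK, ZAP70, GZMA, GZMB and PRF1. Their probe sets were those that the platform annotation gave to a single one of these symbols, which was 15 probe sets of 9 genes among 42924 probe sets other than controls. No probe set carried the symbol ZAP70 alone, and it is not analysed here. The dogs had either an increased (9 tumours) or a normal (9 tumours) serum concentration of alkaline phosphatase (ALP), an enzyme that reaches the blood mainly from bone and liver. Both groups were snap-frozen primary tumour tissue, handled the same way, and neither normal tissue nor a treatment was part of the design. The labels give no breed, age, tumour site or batch. RNA of every tumour was read on an Affymetrix canine array of its own. Each level below is log2(signal + 16), on which a dim probe set shows less than its true change.

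A T cell recognises its target through the T cell receptor, whose signal is carried into the cell by the CD3 chains. The kinase LCK phosphorylates those chains, ZAP70 then binds them, and the coreceptor CD8 brings LCK to receptors that see MHC class I. Cytotoxic T cells and NK cells kill by releasing perforin, which opens the target's membrane, together with granzymes, the proteases that enter and start cell death. These transcripts are known from lymphocytes and not from bone-forming cells, and a piece of tumour is a mixture of both. In such bulk tissue, fewer cells of a type and less RNA per cell cannot be told apart.

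The arrays were alike in their medians of the deposited log2 values, which lay between 6.25 and 6.31. Their 75th percentiles ran from 8.01 to 8.27 and their SDs over probe sets from 2.25 to 2.39. Both measures were lowest in increased ALP replicate 6. The correlation between 2 arrays lay between 0.92 and 0.98. Most osteoblast genes, which mark the labelled tissue, were bright. COL1A1, the main bone collagen, was at 14.27 ± 0.31 with increased and 14.08 ± 0.76 with normal ALP (SD, n = 9 each). In the same order the osteoblast gene BGLAP was at 8.43 ± 1.97 and 8.43 ± 1.75. RUNX2, of the same list, was dimmer, at 7.17 ± 0.78 and 7.04 ± 0.53. The BioB spike-in, bacterial RNA added in a fixed amount, read 10.48 and 10.01 in increased ALP replicates 3 and 6, against 8.74 to 9.13 in the other tumours with increased ALP and 8.47 to 9.29 in those with normal ALP. The actin 3' to middle difference, which grows as RNA degrades, had a lowest, median and highest value of 1.44, 1.76 and 2.17 with increased ALP, against 1.19, 1.40 and 1.76 with normal ALP. It was used as a covariate and was set against the genes across tumours.

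Most of the T and NK cell probe sets were dim. Probe sets differ in how well they bind, so the levels are set against background here and not against each other as amounts of RNA. Of the 15, 7 had a mean over the 18 tumours below the 40th percentile of all probe sets (6.15), which was the limit for entering the fit, and 12 lay below the 60th percentile (7.11). A set of 41 genes of eye, testis, pancreas, liver, gut and olfactory tissue, measured by 75 probe sets, served as a reference for background. Its median was 5.54, and 2 of the 15 probe sets lay below that. All 15 lay below its 95th percentile, 7.63, and 14 did once BPI was left out of it (7.52). BPI encodes a neutrophil granule protein and stood at 10.85 here, so it was a poor member of that reference. Farthest above the limit lay CD2 at its _s_at probe set, at 7.53, and CD3E at its _at probe set, at 7.32. CD8A at its _at probe set averaged 4.53, which only 1.97% of all probe sets fell below.

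**Figure D1:**
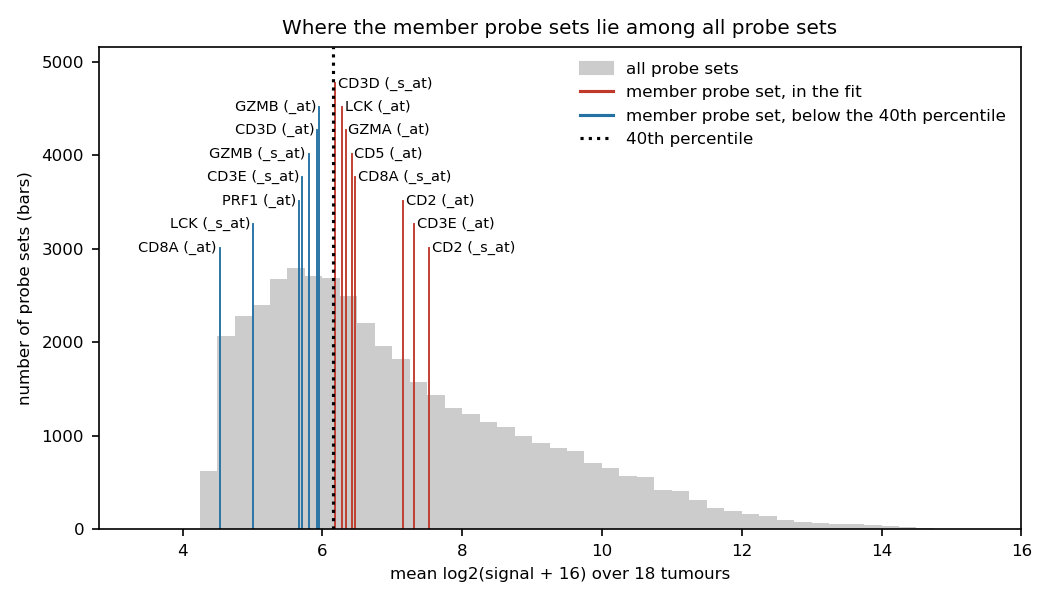
Distribution of the mean log2(signal + 16) over 18 tumours for all 42924 probe sets (bars, number of probe sets), with the 15 T and NK cell probe sets as vertical lines. The 8 red lines lie right of the dotted 40th percentile at 6.15 and entered the fit, and the 7 blue lines lie left of it. The line heights only separate the names.

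A dim mean hid a wide range for some of these genes. CD3D, a chain of the T cell receptor complex, had a lowest, median and highest level of 5.56, 5.87 and 8.24 with increased ALP, against 5.13, 5.86 and 8.004 with normal ALP, at its _s_at probe set. A gap set 3 tumours apart, namely increased ALP replicates 8 and 2 (8.24 and 7.81) and normal ALP replicate 2 (8.004), and the next tumour was at 6.50. The groups overlapped over almost their whole range. The 18 tumours spanned 3.11 on the log2 scale at this probe set. At the other CD3D probe set, whose mean lay below the limit, they spanned 3.60, with the lowest near background, and the same 3 tumours were highest at 8.06, 8.06 and 8.08. The SD over tumours was higher than that of 96.3% of all probe sets at the first and of 98.0% at the second.

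CD3E, another chain of the same complex, varied less at its _at probe set, where the tumours spanned 1.19 on the log2 scale. It had a lowest, median and highest level of 6.92, 7.32 and 8.10 with increased ALP, against 6.91, 7.14 and 7.67 with normal ALP. The highest 4 tumours were increased ALP replicates 2, 8 and 6 and normal ALP replicate 2, and the groups overlapped. At the dim _s_at probe set of CD3E the 3 tumours highest in CD3D again led, at 6.67 (increased ALP replicate 2), 6.62 (increased ALP replicate 8) and 6.68 (normal ALP replicate 2).

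**Figure D2:**
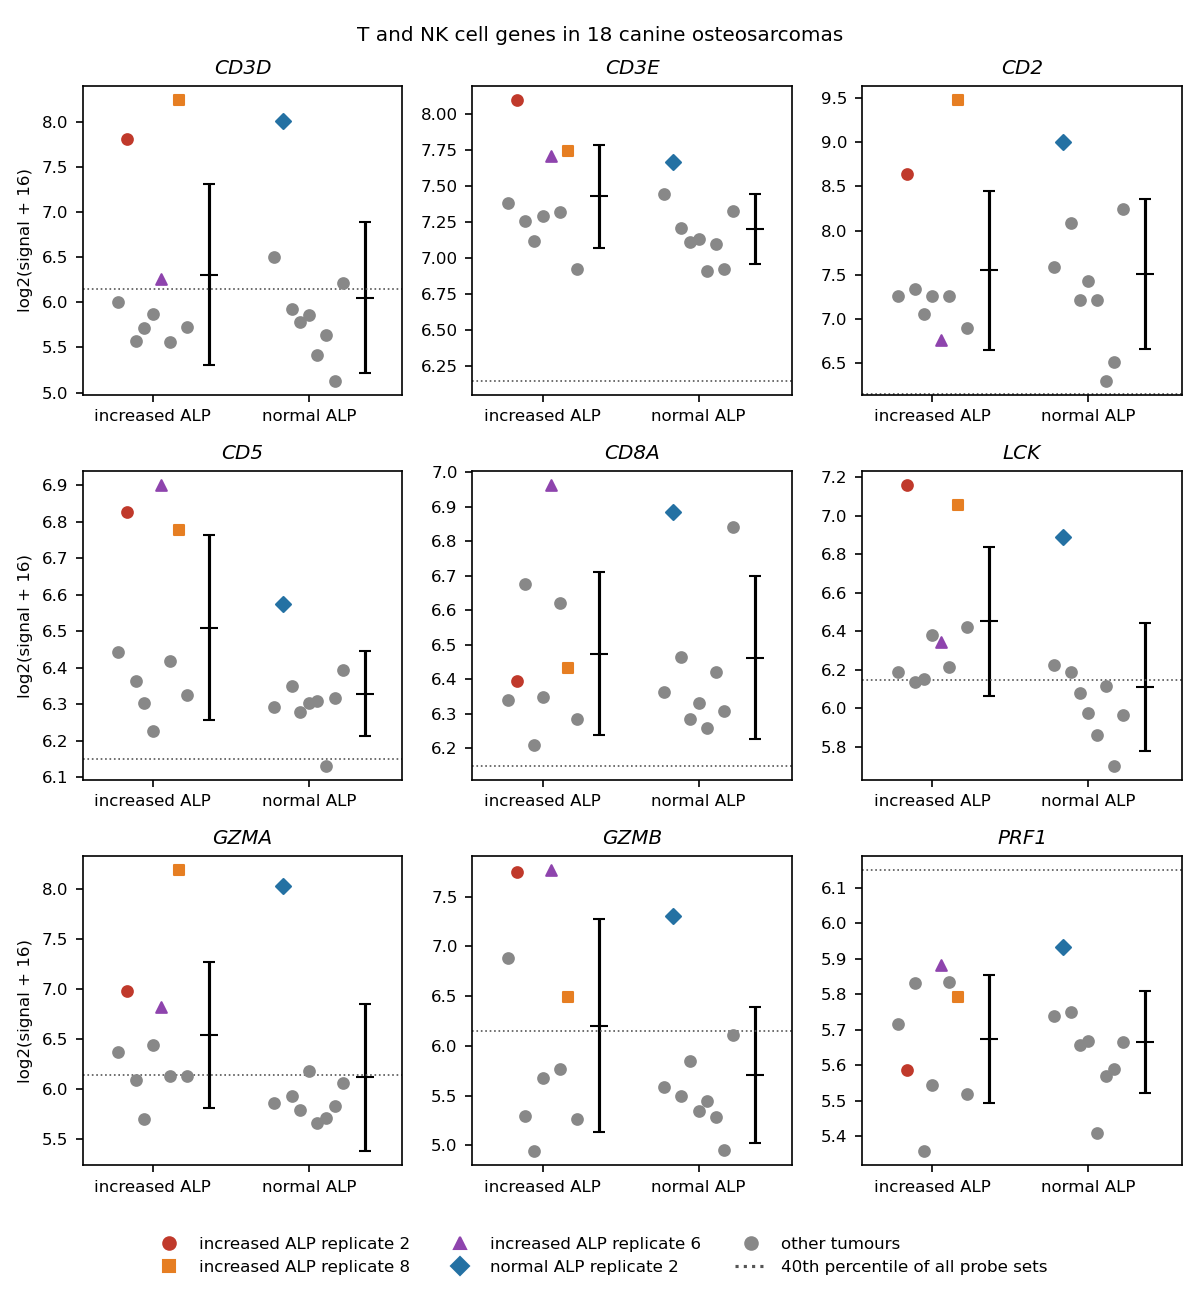
Level of 9 T and NK cell genes in each tumour, at the probe set of highest mean, with 1 panel per gene, log2(signal + 16) on the y axis and points for single tumours. Bars are the mean and SD of 9 tumours per group, and the dotted line is the 40th percentile of all probe sets at 6.15. Increased ALP replicates 2 and 8 and normal ALP replicate 2 lie above all other tumours for CD3D, LCK and CD2, while increased ALP replicate 6 is highest for CD5, CD8A and GZMB.

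CD2 is an adhesion receptor of T and NK cells. At its _s_at probe set it had a lowest, median and highest level of 6.76, 7.26 and 9.48 with increased ALP, against 6.30, 7.43 and 9.00 with normal ALP. Increased ALP replicates 8 and 2 and normal ALP replicate 2 were highest, followed by normal ALP replicates 9 and 3 at 8.24 and 8.09. The tumours spanned 3.18 on the log2 scale. The _at probe set had a narrower span of 1.88. Increased ALP replicate 6 was the lowest tumour of its group at the first probe set, at 6.76, but read 7.37 at the second, above its group's median of 7.03.

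CD5 is a receptor of T cells that dampens their signal. Its single probe set had a lowest, median and highest level of 6.23, 6.42 and 6.90 with increased ALP, against 6.13, 6.31 and 6.57 with normal ALP. The 3 highest tumours were increased ALP replicates 6, 2 and 8, at 6.90, 6.83 and 6.78, with normal ALP replicate 2 next. The span was narrow, at 0.77 on the log2 scale over the 18 tumours.

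CD8A, which encodes the coreceptor chain of cytotoxic T cells, did not follow the CD3D order at its _s_at probe set. Its lowest, median and highest levels were 6.21, 6.39 and 6.96 with increased ALP, against 6.26, 6.36 and 6.89 with normal ALP. Increased ALP replicate 6, normal ALP replicate 2 and normal ALP replicate 9 were highest, at 6.96, 6.89 and 6.84. Increased ALP replicates 2 and 8, which led in CD3D, were at 6.39 and 6.43. The other CD8A probe set stayed between 4.44 and 4.70 in all tumours.

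LCK, the kinase that starts T cell receptor signalling, had a lowest, median and highest level of 6.14, 6.35 and 7.16 with increased ALP, against 5.70, 6.08 and 6.89 with normal ALP, at its _at probe set. The same 3 tumours as for CD3D were highest, at 7.16 (increased ALP replicate 2), 7.06 (increased ALP replicate 8) and 6.89 (normal ALP replicate 2). The _s_at probe set stayed between 4.84 and 5.21, and its highest tumours were others, increased ALP replicate 7 and normal ALP replicate 1.

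GZMA, a granzyme with trypsin-like specificity, had a lowest, median and highest level of 5.71, 6.37 and 8.19 with increased ALP, against 5.66, 5.86 and 8.04 with normal ALP. Increased ALP replicate 8 and normal ALP replicate 2 stood clear of the rest, with increased ALP replicates 2 and 6 next at 6.99 and 6.82. GZMB, the granzyme that cleaves after aspartate and activates caspases, had a lowest, median and highest level of 4.94, 5.76 and 7.76 with increased ALP, against 4.95, 5.49 and 7.30 with normal ALP, at its _at probe set. Of the 5 highest tumours, 4 had increased ALP, namely replicates 6 and 2 at 7.76 and 7.75, replicate 1 at 6.89 and replicate 8 at 6.49, and normal ALP replicate 2 was at 7.30. Increased ALP replicates 6 and 1 were thus high in GZMB at CD3D levels of 6.25 and 6.01. The GZMB _s_at probe set spanned 2.50 on the log2 scale, with normal ALP replicate 2 highest at 7.45.

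PRF1 encodes perforin. Its only probe set lay below the limit and had a lowest, median and highest level of 5.36, 5.72 and 5.88 with increased ALP, against 5.41, 5.66 and 5.93 with normal ALP. The tumours spanned 0.57 on the log2 scale, and increased ALP replicate 2 lay at 5.59, below its group's median.

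**Figure D3:**
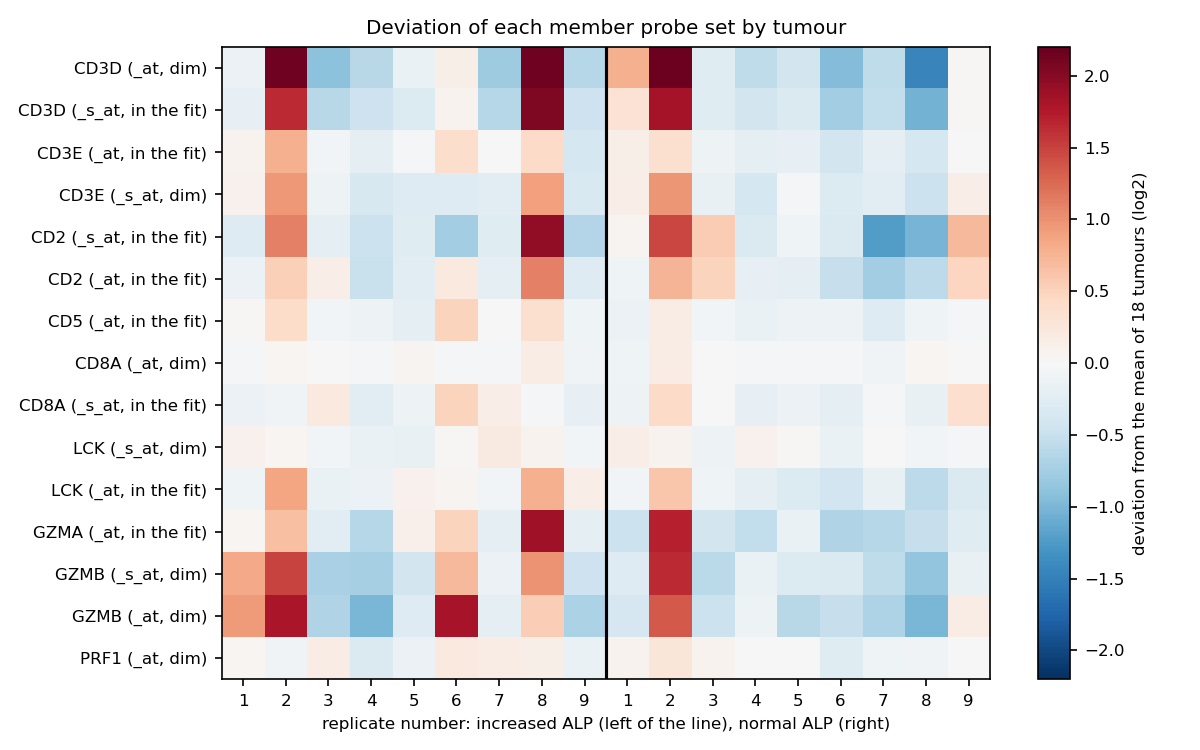
Deviation of each of the 15 probe sets from its mean of 18 tumours (colour, log2 units), with increased ALP tumours left and normal ALP tumours right of the line, and dim marking a mean below 6.15. Increased ALP replicates 2 and 8 and normal ALP replicate 2 are red in both CD3D rows, while the dim CD8A and LCK rows are nearly uniform.

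Taking 1 probe set per gene, that of highest mean, normal ALP replicate 2 was among the 3 highest tumours for 7 of 9 genes and never ranked below 4. Increased ALP replicate 2 was among the 3 highest for 7 genes, replicate 8 for 6 and replicate 6 for 5. Increased ALP replicate 7 and normal ALP replicate 9 were so for 1 gene each, and the remaining 12 tumours for none. At the other end, normal ALP replicate 6 was among the 3 lowest for 6 genes and normal ALP replicate 8 for 5. Increased ALP replicates 4 and 9 were among the 3 lowest for 4 genes each.

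The comparison by serum ALP asked whether tumours from dogs with increased ALP carried more or less of these transcripts. No T or NK cell probe set passed the test. In limma, 0 of the 8 probe sets that entered the fit had an adjusted p under 0.05 (Benjamini-Hochberg), and among all 25754 probe sets in the fit 0, or 0%, did. With no filter 0 of the 15 passed, and 0, or 0%, of 42924. At an unadjusted p under 0.05 there was 1 of the 8, LCK, against 6.14% of all probe sets in the fit. It was higher, as were 1.92% of all, and 0 of the 8 were lower, against 4.22% of all. With no filter LCK was again the 1 of 15, against 6.12% of all. The count was not stable, at 0 in 16 of 32 other settings, among them leaving out increased ALP replicate 2, 6 or 8, and at 3 without normal ALP replicate 2. Exact two-sided permutation tests of the 48620 splits gave no p under 0.05 at any of the 15. The 2 groups overlapped at each of the 15, as they did at every probe set of the fit, where 0% did not overlap.

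All 8 differences, increased minus normal ALP, were above 0, as were 51.5% of all those in the fit, and the median was 0.20, against 0.01 over all probe sets in the fit. With no filter all 15 were above 0, against 58.3% of all, with a median of 0.18, against 0.02. The probe sets share tumours, so these are not separate observations. Without increased ALP replicate 8 the median was 0.08 and without increased ALP replicate 2 it was 0.11, while it was 0.36 with the actin difference as a covariate.

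LCK averaged 6.45 ± 0.39 with increased ALP and 6.11 ± 0.33 with normal ALP (SD, n = 9 each). The difference was 0.34 ± 0.16 (SE, unadjusted 95% interval 0.0025 to 0.68), or 1.27-fold. For it limma gave an adjusted p of 0.810 and the exact permutation test a p of 0.0691. All 9 tumours with increased ALP lay above the mean of those with normal ALP. At the other probe sets this count ran from 2 of 9 (CD2, _s_at) to 7 of 9 (CD3E, _at, and GZMA). It was 3 of 9 for CD3D, CD8A and CD3E at their _s_at probe sets. The other LCK probe set, among the dimmest, differed by 0.00 ± 0.05.

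CD5 averaged 6.51 ± 0.25 with increased and 6.33 ± 0.12 with normal ALP (SD, n = 9 each), a difference of 0.18 ± 0.09 (SE), with an adjusted p of 0.833 in limma. CD3E averaged 7.43 ± 0.36 and 7.20 ± 0.24 in the same order, a difference of 0.23 ± 0.14, with 7 of 9 tumours with increased ALP above the normal ALP mean and an adjusted p of 0.850 in limma. The granzymes had differences of 0.42 ± 0.32 for GZMA and 0.50 ± 0.39 for GZMB at its _at probe set (SE), and their intervals ran from -0.25 to 1.10 and from -0.33 to 1.32. Leaving out increased ALP replicate 8 gave 0.22 for GZMA, and leaving out normal ALP replicate 2 gave 0.66. Leaving out increased ALP replicate 6 or 2 gave 0.30 for GZMB, and leaving out normal ALP replicate 2 gave 0.70. CD3D differed by 0.26 ± 0.40 (interval -0.59 to 1.10), so that a fold from 0.665 to 2.15 was allowed, and the difference lay between 0.01 and 0.50 on leaving out single arrays. With the actin difference, which was larger with increased ALP, as a covariate, CD3D differed by 0.52 and CD2 at its _s_at probe set by 0.50. Without covariates, CD2 at its _s_at probe set, CD8A at its _s_at probe set and PRF1 differed by 0.04 ± 0.39, 0.01 ± 0.11 and 0.01 ± 0.08. The interval for CD2 ran from -0.77 to 0.84, which allowed a fold of 0.586 to 1.80, while that for CD8A allowed a fold of 0.860 to 1.18.

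**Figure D4:**
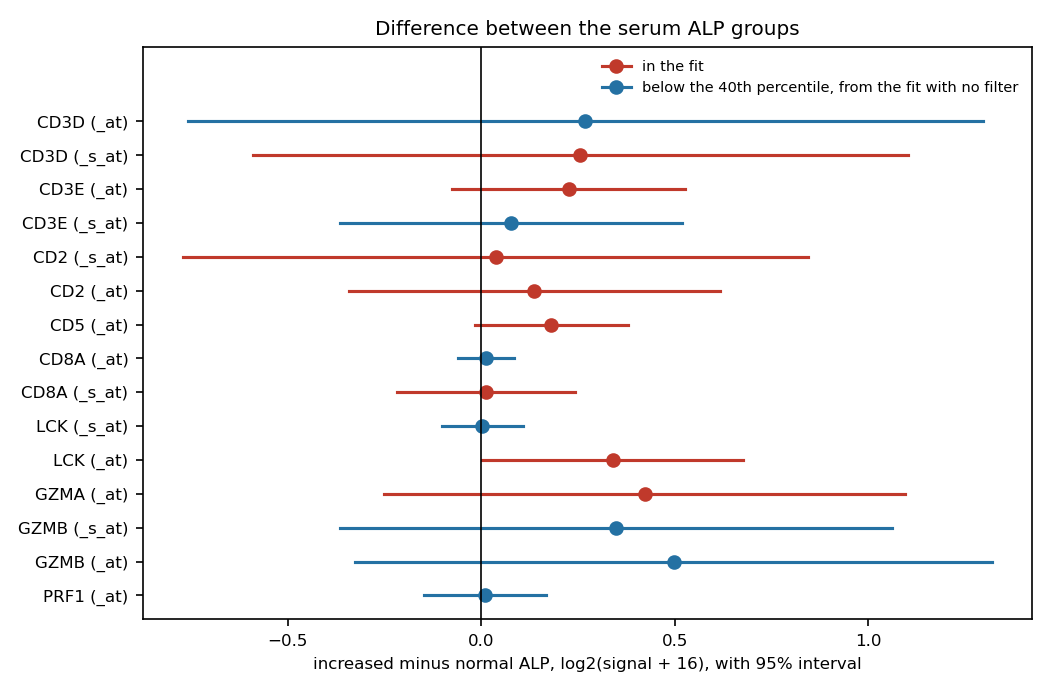
Difference between the groups, increased minus normal ALP, on the log2(signal + 16) scale (x axis) for 15 probe sets, with 95% intervals from limma. Red points entered the fit and blue points come from the fit with no filter. Unadjusted, the interval of LCK at its _at probe set starts at 0.0025, just above 0, and the 14 others include 0.

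These genes varied together across tumours. Of the 36 pairs of 9 genes, 36 had a Pearson r above 0, with a median of 0.68, and 27 passed at an adjusted permutation p under 0.05 (26 by Spearman's rho, median 0.59). Without the 2 tumours farthest from the median of the first gene of each pair, 21 pairs passed, 19 of them among the 27. CD3D had 3 tumours apart from the rest, and without them 11 pairs passed, 10 of them among the 27, all 36 were still above 0 and the median r was 0.53. Over the same 15 tumours, other genes also varied with the mean of the 9 genes, which is another measure than r of pairs. The median r with that mean was 0.43 for the background reference genes in the fit, 0.52 for endothelial and -0.20 for osteoblast genes. Leaving out tumours by their CD3D level narrows the range of CD3D and of genes that follow it. Within the groups the median r was 0.58 with increased and 0.81 with normal ALP, and 32 and 36 pairs were above 0 in that order. Whether the groups differed in this was not tested.

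Among the pairs that passed without the 3 tumours were those of CD3E with each of the killing genes. CD3E and GZMB had r = 0.87 over 18 tumours (rho = 0.82) and 0.79 over the 15 (adjusted permutation p = 0.0148). Of the 8 pairs with CD3E, 6 passed over the 15 tumours. CD5 and GZMB had r = 0.85 over 18 and 0.83 over 15 (adjusted permutation p = 0.0163). CD3D and LCK had the highest r, 0.90, with rho = 0.67 (adjusted permutation p = 0.00732). Its r was 0.84 without the 2 tumours farthest from the median (adjusted permutation p = 0.00619) and 0.50 over the 15 tumours (adjusted permutation p = 0.106). CD3D and GZMA had r = 0.89 and rho = 0.70, with an r of 0.69 without the 2 farthest tumours (adjusted permutation p = 0.0114) and 0.43 over the 15. None of the 8 pairs with CD2 passed over the 15 tumours.

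Over 18 tumours CD8A and PRF1 had lower correlations with the others, and this order changed over the 15. CD8A and LCK had the lowest r of all pairs, 0.21 (rho = 0.31). CD8A and PRF1 followed each other, at r = 0.74 (rho = 0.81) and 0.71 over the 15 tumours (adjusted permutation p = 0.0163). Their spans were narrow, 0.75 and 0.57 on the log2 scale. Both read high on the arrays of lowest SD over probe sets, increased ALP replicates 6, 3 and 7 (2.25, 2.27 and 2.32). They were lowest on those of highest SD, normal ALP replicate 6 and increased ALP replicate 4 (both 2.39). Normal ALP replicate 5, next at 2.39, was at 6.33 in CD8A and 5.67 in PRF1, among the 3 lowest in neither. Normal ALP replicate 2, at 2.37, was also high in both genes, and a link with array SD was not tested. Against the mean of the 8 other genes, r was 0.90 for CD3E and 0.87 for CD3D, while it was 0.51 for CD8A and 0.58 for PRF1. These are descriptions, and 2.75% of 42909 other probe sets were at least as high as CD8A, against 0.0233% for CD3E. Over the 15 tumours the median r of the 8 pairs was 0.59 for CD8A and 0.55 for PRF1, against 0.46 for CD3D and 0.14 for CD2.

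**Figure D5:**
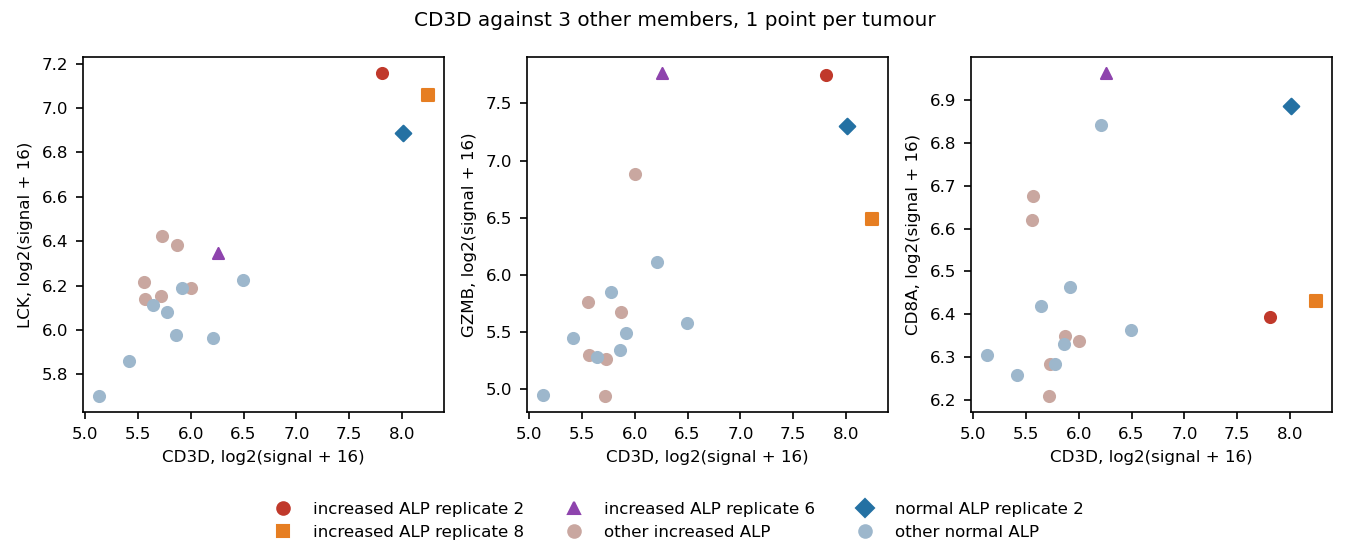
CD3D against LCK, GZMB and CD8A, log2(signal + 16) on both axes, 1 point per tumour. Increased ALP replicates 2 and 8 and normal ALP replicate 2 lie at the right of each panel, above 7.80 in CD3D, and increased ALP replicate 6 is high in GZMB and CD8A at a CD3D level of 6.25.

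Both probe sets of a gene were followed across tumours, in a family chosen after seeing the data. They tracked each other for CD3D (r = 0.99), GZMB (0.93), CD2 (0.91) and CD3E (0.81), and these 4 of 6 passed at an adjusted permutation p under 0.05. CD8A (0.31) and LCK (0.31) did not pass, and in each the second probe set was among the dimmest. For CD3E the r was 0.51 over the 15 tumours.

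Against markers of other cells, 90 relations were tested. CD53, a leukocyte membrane protein, passed with 3 genes, CD2 at r = 0.81, CD3D at 0.75 and CD3E at 0.67. CD74, the invariant chain of MHC class II, passed with CD3E at 0.74, GZMB at 0.69 and PRF1 at 0.64. CXCL10, a chemokine that draws T cells through CXCR3, passed with GZMA at 0.71 and CD3D at 0.68. By Spearman's rho 1 relation passed with CD53, 4 with CD74 and 0 with CXCL10. Without the 2 tumours farthest from the median of the T or NK cell gene, 3, 4 and 1 passed in that order, partly with other genes. With CD53 these were CD2, CD5 and GZMB, while CD3D and CD3E no longer passed. With CD74 they were CD3D, CD3E, CD2 and GZMB, without PRF1, and with CXCL10 it was GZMB. There CXCL10 had r = 0.39 with GZMA and 0.37 with CD3D, and neither passed. PTPRC, CD79B, CSF1R, PECAM1, COL1A1, TOP2A and the actin difference passed with none, and the median r with the bone collagen gene COL1A1 was -0.03. CD79B, a B cell receptor chain, averaged 4.97, near background, so its values say little. CSF1R, a macrophage growth factor receptor, had r = -0.09 with the mean of the 9 genes. Among the 12 macrophage genes in the fit, CD68 (-0.17) and CD14 (0.28) were also low. Of the 12, 9 were above 0.5, among them CD163 at 0.76 and C1QA at 0.78, against 3.48% of all probe sets in the fit. Over the 15 tumours 0 of the 90 relations passed.

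Genes of the wider pathway were grouped into lists, from which up to 4 genes of smallest p are named, and 0 members of any list had an adjusted p under 0.05 in limma. The counts above 0 stand beside 51.5% of all probe sets in the fit, and the genes of a list share tumours. A probe set of 1 symbol was present for 14 of 17 receptor signalling and 16 of 20 NK cell genes. It was present for 11 of 13 transcription factors and 13 of 18 cytokine receptor and homing genes. Of 12 T cell receptor complex and coreceptor genes, 4 entered the fit and 4 were above 0, with CD27, a costimulatory receptor, at 0.07 ± 0.08 (SE) and CD4, the helper T cell coreceptor, at 0.08 ± 0.12. CD8B, the partner chain of CD8A, differed by 0.04 ± 0.26 and had r = -0.03 with the mean of the 9 genes. Of 17 receptor signalling genes, 9 entered, 5 above and 4 below 0, with the adaptor LAT at 0.13 ± 0.09, the phosphatase PTPN22 at -0.62 ± 0.43 and the kinase FYN at 0.26 ± 0.23.

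Of 20 NK cell genes, 10 entered and 8 were above 0. NCR3, an activating NK receptor, stood at 0.14 ± 0.08 (SE), GZMK, another granzyme, at 0.42 ± 0.29 and UNC13D, which primes granules for release, at 0.09 ± 0.09. Of 13 transcription factors, 6 entered and 4 were above 0, with LEF1 at -0.46 ± 0.29 and TOX at 0.47 ± 0.42. Of 18 cytokine receptor and homing genes, 9 entered and 8 were above 0, with the receptors IL2RA at 0.13 ± 0.09 and CXCR3 at 0.20 ± 0.17. Of 12 checkpoint genes, 9 entered, 5 above and 4 below 0, with LAG3, an inhibitory receptor, at -0.48 ± 0.31 and BTLA at 0.11 ± 0.14.

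The 10 named genes of highest r were taken with the mean of the 9 T and NK cell genes over 18 tumours, from 18765 probe sets of the fit with 1 symbol, of which 0.112% reached 0.8. They were LOC475935 (0.94), LOC607937 (0.93), MPEG1 (0.92), LOC480788 (0.92), GZMK (0.91), SLA (0.87), NKG7 (0.86), SEPTIN1 (0.84), LTB (0.83) and BPI (0.83). The RefSeq table lists LOC480788 as a constant-region gene segment. GZMK encodes a granzyme and NKG7 a cytotoxic granule protein, while MPEG1, a pore-forming protein, is known from macrophages. GZMK was at 7.74 and 7.94 in increased ALP replicates 2 and 8 and at 7.03 in normal ALP replicate 2, and no other tumour passed 6.49. Its r over the remaining 15 tumours was 0.92. LTB, which encodes lymphotoxin beta, averaged 7.13 with increased and 6.67 with normal ALP, a difference of 0.46 ± 0.17 (SE) with an adjusted p of 0.692 in limma. The lowest r belonged to NAALADL2 (-0.87), PCED1A (-0.83), TBC1D19 (-0.78), PMEPA1 (-0.76) and PTPRA (-0.74).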

How the data were processed

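RNA was extracted with TRIzol from frozen tumours and labelled with biotin, per the labels' protocols. The deposited values are log2 signals of 43035 probe sets (2.03 to 15.09), and MAS5 is named, with no version, per the submitters' processing notes; the summary method and normalization are not settled. Detection calls were not used here. Values were turned to linear signals, 16 was added and log2 taken, with no further normalization. Controls (111) and probe sets with a mean below the 40th percentile were left out of the fit. Groups were compared with limma 3.58.1 in R 4.3.3 (eBayes with a trend), two-sided, over all 25754 remaining probe sets, with Benjamini-Hochberg adjustment at 0.05; dimmer members came from the same fit with no filter. Means of single probe sets were also compared by exact permutation. Correlations used 100000 permutations in Python 3.11.15 with SciPy 1.17.1, adjusted within each family. The fit was tested on simulated data. The number of arrays limits the precision. The labels number the tissues without saying that each came from a separate dog, so p-values measure the spread between these samples.

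Named genes were all probe sets of the members, up to 4 genes of smallest p of each other list, and the 10 and 5 genes of highest and lowest correlation with the members' mean. The members and lists were chosen with earlier results of these data known. Gene names came from the platform annotation, where 29254 probe sets carried 1 symbol, 439 several and 13231 none. All 9 gene identifiers were found under the same symbol in the RefSeq table of UU_Cfam_GSD_1.0, used for names only. Tissue numbers in the titles do not say that tumours are paired; the check is given with the alternatives, which were other offsets, filters, normalizations, variance models, weights, quality covariates and leaving out arrays.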

Additional observations from a re-analysis of the deposited data

Results flagged for a closer look

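In 7 of 30 groups of 9 tumours examined (15 probe sets, 2 groups each), the highest tumour lay far from the other 8, and in each it was normal ALP replicate 2. Such a gap arises by chance in about 5% of groups if the values are normally distributed, which was not tested here. The probe sets share tumours, so they are not separate observations. CD3D at its _s_at probe set was at 8.004, with the nearest normal ALP tumour at 6.50. CD3E at its _s_at probe set was at 6.68, with the nearest at 5.86, and LCK at its _at probe set was at 6.89, with the nearest at 6.23. The granzymes had wide gaps, with GZMA at 8.04 and the nearest at 6.18, and GZMB at 7.45 and 7.30 at its _s_at and _at probe sets, with the nearest at 5.66 and 6.11. CD8A at its _at probe set was at 4.70, with the nearest at 4.57, where all tumours were dim. Without normal ALP replicate 2 the median difference of the 8 probe sets in the fit was at its highest among single arrays left out, 0.26.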

How the results depend on the processing

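The count of T and NK cell probe sets called was 0 under each of 32 settings, and the smallest adjusted p of any was 0.545 in limma. The median difference stayed above 0, from 0.083 to 0.262 on leaving out single arrays, and was 0.36 with the actin difference as a covariate, which gave 0.50 for CD2 (_s_at) and 0.52 for CD3D (_s_at). The number of probe sets near background depended on its definition, with 7 below the 40th percentile, 12 below the 60th, 15 below the 95th percentile of the reference genes and 14 without BPI, and the last was chosen after seeing the data, as was leaving out the 3 tumours of highest CD3D, after which 11 pairs passed, 10 of them among the 27 of all tumours. Of 466 recomputed differences 39 changed sign, all at probe sets whose difference was small: quantile normalization gave -0.0199 for LCK (_s_at) and -0.0096 for PRF1, array weights -0.00038 and -0.011, the actin covariate -0.13 for CD8A (_s_at) and -0.061 for PRF1, the GAPDH covariate -0.035 and -0.016, and leaving out increased ALP replicates 3 and 6 together -0.086 and -0.043. On leaving out single arrays, the range was -0.20 to 0.22 for CD2 (_s_at), -0.037 to 0.20 for CD3E (_s_at), -0.0079 to 0.034 for CD8A (_at), -0.049 to 0.065 for CD8A (_s_at), -0.023 to 0.024 for LCK (_s_at) and -0.023 to 0.048 for PRF1. In their deviations from the group means, same-numbered tumours correlated between -0.16 and 0.27. Of 9 tumours with increased ALP, 0 correlated best with their own number. The check showed no likeness by number, but it cannot exclude a pairing that leaves no such likeness. With the tissue number as a replicate block 0 probe sets were called. The smallest adjusted p was then 0.0684 in limma and the median difference was 0.20. Signals near background limit what dim probe sets can show.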

Other observations

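Other cell types were read in the same fit, where 0 genes of any list had an adjusted p under 0.05 in limma. Of all probe sets in the fit, 51.5% were above 0. The genes of a list share tumours, so they are not separate observations. All 7 neutrophil genes were above 0, with the granule protein LTF at 6.67 ± 1.22 with increased and 5.78 ± 0.24 with normal ALP (SD, n = 9 each), a difference of 0.89 ± 0.38 (SE). Of 12 macrophage genes 9 were above 0, with the sialic acid receptor SIGLEC1 at 0.23 ± 0.18 and the haemoglobin scavenger receptor CD163 at 0.44 ± 0.53. All 9 endothelial genes were above 0, with the VEGF receptor KDR at 0.33 ± 0.24. All 3 B and plasma cell genes in the fit were above 0, with POU2AF1, a B cell coactivator, at 0.05 ± 0.09. Of 9 pan-leukocyte genes in the fit 7 were above and 2 below 0, with PTPRC at -0.38 ± 0.24 and CD48 at 0.42 ± 0.39. Of 8 osteoblast genes in the fit 5 were above and 3 below 0, with COL1A1 at 0.19 ± 0.25 and ALPL at -0.42 ± 0.85.

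As a description over 18 tumours, the median r with the mean of the 9 T and NK cell genes was 0.62 for macrophage genes and 0.57 for pan-leukocyte genes. It was 0.10 for neutrophil, 0.03 for endothelial and -0.17 for osteoblast genes, against 0.22 for the background reference genes and -0.0048 over all probe sets in the fit. Over the 15 tumours without the 3 of highest CD3D, the median was 0.43 for the background reference genes, 0.62 for macrophage, 0.52 for endothelial, 0.44 for pan-leukocyte, 0.30 for neutrophil and -0.20 for osteoblast genes.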
